A study of Mus musculus with 12 samples.

Results

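The promoters of protein-coding genes were examined in ATAC-seq data from mouse hematopoietic stem cells (HSCs). A region was counted as a promoter when its position lay within 1 kb of an annotated transcript start of a protein-coding gene. Of 70945 accessible regions on chromosomes 1 to 19 and X, 15423 (21.7%) were promoters in this sense. They were chosen by position alone, and no comparison between groups entered the choice.

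ATAC-seq uses a transposase that inserts sequencing adapters into open DNA, and the deposited lists give the summits of the peaks called in each library. HSCs were sorted from bone marrow as Lin-/cKit+/Sca1+/Flk2-/CD48-/CD150+ cells of WT mice and of mice with a germline deletion of Mlkl, the pseudokinase that executes necroptosis. Cells came from C57BL/6 mice of 3 months (young) and 18 months (aged), and with the 2 genotypes this made 4 groups of 3 libraries, named here Young or Aged and WT or Mlkl-/-. A library held cells pooled from a number of animals that was larger at the young age, and per the study's methods all were processed on 1 day, so p-values measure the spread between such pools (n = 3 per group). Because the deletion was present in all tissues from birth, an effect within the stem cells and an effect of their surroundings cannot be told apart. In bulk libraries, a smaller share of cells with an open promoter and a weaker opening in every cell cannot be told apart either. The lists held between 35696 and 61465 summits with a score of at least 3 (the −log10 of the q-value), with a mean of 44662 in young and 55221 in aged libraries. Sequencing depth was unknown. Summits at the Y-linked genes Ddx3y, Uty and Eif2s3y were present in 3 of 6 young and 0 of 6 aged libraries, and the labels name no sex.

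A promoter is the stretch of DNA around a transcription start where the transcription machinery assembles. In mammals most promoters of broadly used genes lie in CpG islands, which are rich in G and C and in the CpG dinucleotide that is scarce elsewhere in the genome, and they are kept free of nucleosomes in nearly all cells. Promoters of genes used in a single tissue more often lack an island and open only where the gene is used, whereas much of the cell-type specificity of open chromatin lies in distant enhancers.

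The sequences upstream of the start are shown for promoters of the highest rank and of the largest changes with age. Each runs 5′ to 3′ on the gene's strand, ends at the base before the annotated start and holds 200 bases of mm10. Capitals mark matches on either strand to any of 11 motifs whose letters are spelled out with the motif results, and overlapping matches are run together. The first 3 belong to promoters of higher rank in aged libraries: Mapk10 (chr5:103211335-103211534, minus strand), Khdrbs2 (chr1:32172514-32172713, plus strand) and Prkcz (chr4:155361362-155361561, minus strand).
Mapk10: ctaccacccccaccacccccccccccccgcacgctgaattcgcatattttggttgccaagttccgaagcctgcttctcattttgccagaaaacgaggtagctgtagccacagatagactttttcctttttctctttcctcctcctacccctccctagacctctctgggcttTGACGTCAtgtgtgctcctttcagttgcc
Khdrbs2: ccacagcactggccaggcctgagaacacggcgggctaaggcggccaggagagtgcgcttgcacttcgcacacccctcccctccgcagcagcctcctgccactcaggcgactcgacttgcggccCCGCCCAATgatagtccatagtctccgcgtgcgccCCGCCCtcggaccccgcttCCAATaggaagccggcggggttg
Prkcz: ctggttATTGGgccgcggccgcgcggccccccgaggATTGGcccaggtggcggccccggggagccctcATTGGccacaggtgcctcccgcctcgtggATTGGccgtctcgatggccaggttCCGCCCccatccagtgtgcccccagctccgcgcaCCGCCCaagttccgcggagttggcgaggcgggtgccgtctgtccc
The next 4 belong to promoters of lower rank in aged libraries: Rnf220 (chr4:117497053-117497252, minus strand), Nlrp1b (chr11:71230734-71230933, minus strand), and the neighbouring genes Calm4 (chr13:3837557-3837756, plus strand) and Calm5 (chr13:3853973-3854172, plus strand).
Rnf220: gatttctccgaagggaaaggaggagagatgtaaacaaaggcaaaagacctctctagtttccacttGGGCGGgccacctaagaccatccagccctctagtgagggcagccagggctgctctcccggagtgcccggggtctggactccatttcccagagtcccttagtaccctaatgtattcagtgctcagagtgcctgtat
Nlrp1b: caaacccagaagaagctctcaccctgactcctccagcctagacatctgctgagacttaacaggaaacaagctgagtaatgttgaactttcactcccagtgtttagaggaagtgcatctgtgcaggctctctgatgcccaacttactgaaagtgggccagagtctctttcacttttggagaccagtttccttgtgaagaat
Calm4: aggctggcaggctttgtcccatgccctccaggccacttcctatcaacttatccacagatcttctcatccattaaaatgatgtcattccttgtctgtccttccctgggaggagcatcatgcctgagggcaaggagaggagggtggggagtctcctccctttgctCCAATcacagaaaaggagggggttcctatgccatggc
Calm5: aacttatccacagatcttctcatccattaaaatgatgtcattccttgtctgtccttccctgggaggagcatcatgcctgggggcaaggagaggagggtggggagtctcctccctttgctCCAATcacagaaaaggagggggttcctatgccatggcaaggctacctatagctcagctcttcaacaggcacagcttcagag
The last belongs to Sel1l (chr12:91849158-91849357, minus strand), which was among the promoters of highest rank in all libraries.
Sel1l: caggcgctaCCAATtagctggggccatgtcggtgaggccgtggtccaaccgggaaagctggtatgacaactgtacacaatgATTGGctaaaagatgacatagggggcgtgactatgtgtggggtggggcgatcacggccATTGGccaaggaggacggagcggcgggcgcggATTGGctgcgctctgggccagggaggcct
The upstream bases of Prkcz held 21 CpG dinucleotides and those of Khdrbs2 held 18, whereas those of Calm4, Calm5 and Nlrp1b held 0. CCAAT boxes were found 4 times each in Prkcz and Sel1l, and the cAMP response element (CRE) of Mapk10 was the only match in its stretch. Calm4 and Calm5 shared an unbroken run of 79 bases, against at most 10 bases between any other pair of the printed promoters and the 3 not shown. Reads from this run may have been hard to assign.

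Promoter regions were centred on the start. The median distance of a region's position, its highest-scoring summit, was 18 bp upstream of the nearest coding start (quartiles −97 and 92 bp), and 56.6% lay upstream. Of the 15423 promoters, 8048 (52.2%) lay within 100 bp and 11903 (77.2%) within 250 bp of the start. The plot of distances shows a sharp peak just before the start and lower counts beyond 250 bp, which fell from 199 to 52 per 50 bp upstream and from 186 to 99 downstream. The 331 regions at 901 to 1000 bp and the 281 regions at 1001 to 1100 bp, just inside and just outside the limit, were alike in that 16.6% and 14.6% were called in all 12 lists and their median GC contents were 56.7% and 55.2%.

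**Figure D1:**
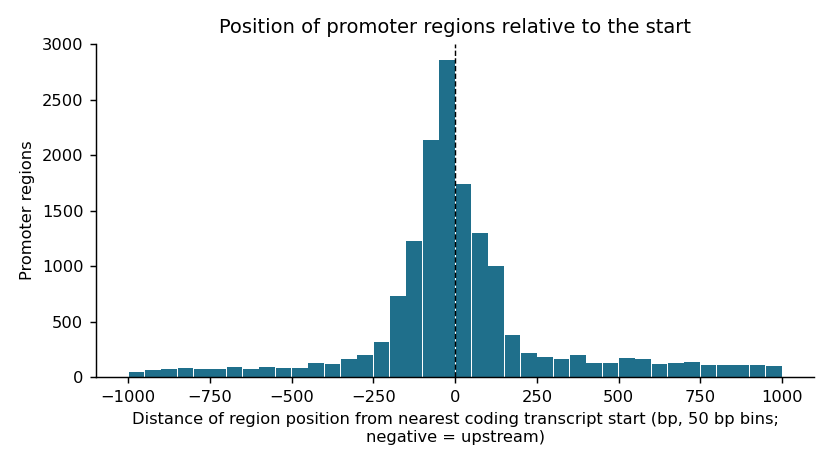
Number of protein-coding promoter regions (y axis) by signed distance of the region's position from the nearest coding transcript start (x axis, bp, 50 bp bins, negative values upstream). The bars are highest just upstream of the start, and 52.2% of regions lay within 100 bp of it.

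Of 21755 annotated protein-coding genes on these chromosomes, 14443 (66.4%) had at least 1 promoter region, 12420 had 1 and 2023 had more. Ank2, which encodes an ankyrin, had the most, with 6. A further 7312 genes had none. A region lay within 1 kb of starts of more than 1 gene in 1299 cases (8.42%), and in 1160 (7.52%) these starts were on both strands.

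To compare libraries, only the 35696 top-scoring summits of every list were used, as many as the shortest one had, and a region counted as called where such a summit fell inside it. Promoters were the most widely shared class of region: 8455 (54.8%) were called in all 12 equal-length lists, against 24.8% of the 1833 promoters of lncRNA genes and 12.7% of all other regions. In the full lists 10084 (65.4%) were present in all 12. At the other end, 1700 promoters (11%) were called in no equal-length list, against 30.6% of other regions. Promoter regions were also wider, with a median of 816 bp against 578 bp, and held a median of 14 summits against 5, and the part of width in these shares was not tested.

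**Figure D2:**
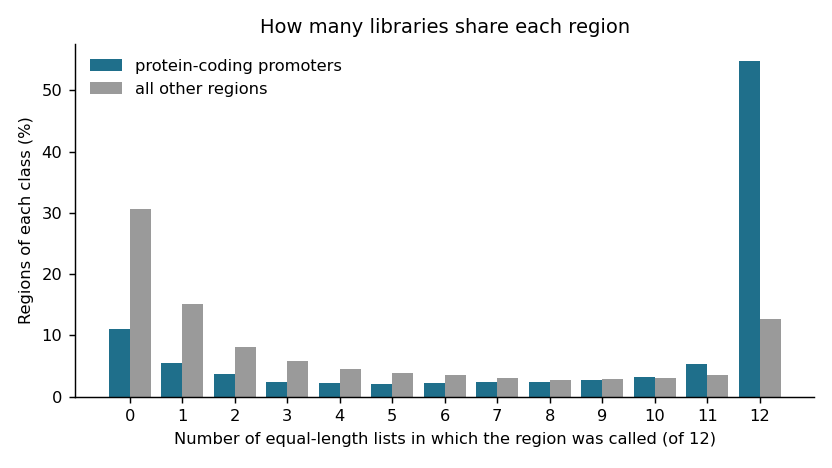
Percentage of regions of each class (y axis) by the number of equal-length lists in which the region was called (x axis). Blue bars are the 15423 protein-coding promoters and grey bars the 55522 other regions, and the blue bar at 12 lists reaches 54.8% where the grey one reaches 12.7%.

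How widely a promoter was shared fell with distance from the start. Within 100 bp 66% were called in all 12 lists, from there to 250 bp 57.6%, on to 500 bp 35.4% and beyond 500 bp 19.2%. Promoters near starts of genes on both strands were called in all 12 lists in 80.6% of cases, against 52.6% of the 14124 promoters near 1 gene. Their median GC content was no higher (63.7% against 64.7%).

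Base composition set promoters apart. The median GC content within 100 bp of the position was 64.7% (quartiles 57.7% and 70.6%), against 49.8% in all other regions. The ratio of observed to expected CpG was 0.780 against 0.236. Among promoters, the share called in all 12 lists was 38.4% at a GC content of 31.8% to 56.2%, reached 63.1% at 67.7% to 72.1% and was 54.3% at 72.6% to 87.1%, the bounds being those of 5 groups of like size.

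Motif letters were distributed unequally between promoters and the catalogue. They were searched on both strands, may overlap each other, and are matches of letters and not sites of binding. The GC box (GGGCGG), bound by SP and KLF factors, was within 100 bp of the position in 53.1% of promoters and in 18.6% of all regions. The ETS motif, spelled CCGGAAG, was found at 12% against 4.49%. The NRF1 motif, spelled GCATGCGC, was found at 3.22% against 1.09%. The CRE, spelled TGACGTCA, was found at 2.30% against 0.868%, and the YY1 motif, spelled AAGATGGC, at 2.45% against 1.57%. The palindrome CTCGCGAG, known as a site of ZBTB33, was found at 1.29% against 0.309%, and the CCAAT box, spelled by its name, at 26.9% against 22.1%. Letters bound by factors of the stem and progenitor cell enhancers went the other way, and so did the TATA box. RUNX letters (TGTGGT) were found at 8.95% of promoters and 23.1% of all regions. GATA letters (AGATAA) were found at 2.93% and 9.25%. AP-1 letters (TGANTCA) were found at 3.77% and 10.2%, and the TATA box (TATAAA) at 2.70% and 6.76%. These motifs differ in GC content, as do the regions, and the part of base composition was not tested.

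**Figure D3:**
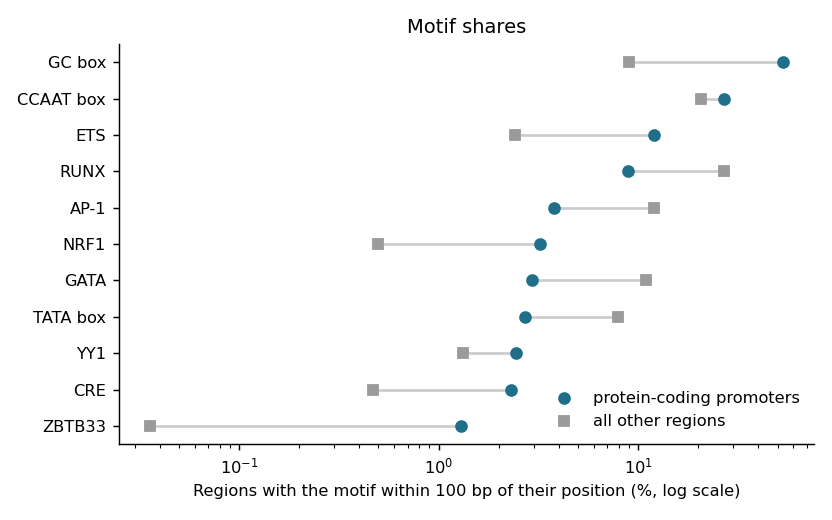
Percentage of regions that hold each motif within 100 bp of their position (x axis, log scale) for 11 motifs (y axis). Blue circles are protein-coding promoters and grey squares all other regions; the circle lies to the right for 7 motifs, the GC box at 53.1% among them, and to the left for RUNX, AP-1, GATA and the TATA box.

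The same motifs sorted promoters by how widely they were shared. Of the 199 promoters with the ZBTB33 palindrome, 85.4% were called in all 12 lists, against 54.4% of those without. For NRF1 the shares were 80.1% and 54.0%, for ETS 78.6% and 51.6%, for CRE 78.6% and 54.3%, for YY1 77.0% and 54.3% and for the CCAAT box 69.4% and 49.5%. Promoters with GATA letters were called in all 12 lists less often than those without (39.2% and 55.3%), as were those with AP-1 (43.5% and 55.3%) and RUNX letters (45.8% and 55.7%).

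Within each list all regions were then ranked by their highest score and the ranks turned into normal scores, where 0 is the middle rank. A region not called in a list had a normal score between −0.57 and −0.53 there. The median normal score of promoters was between 0.70 and 0.90 in the 12 libraries, whereas the median of other regions was that of a region not called in each of them. A normal score is a relative rank of peak significance and not a measure of accessibility itself.

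The 6 promoters of highest mean normal score were those of Gm10800, Hjurp, Ppp2r1a, Sel1l, Tmem218 and Stt3a. Gm10800 is a predicted gene in a stretch of satellite repeat, where reads of many copies can pile up, and its GC content was only 34.8%. Hjurp, the chaperone that loads the centromeric histone, had values between 3.46 and 3.57. Ppp2r1a, the scaffold subunit of phosphatase PP2A, ranged from 3.00 to 3.46. Sel1l, a subunit of the machinery that degrades misfolded proteins of the endoplasmic reticulum, ranged from 3.09 to 3.48. Tmem218, a membrane protein of the cilium, ranged from 3.04 to 3.44, and Stt3a, a catalytic subunit of the oligosaccharyltransferase, from 2.93 to 3.43. Young and aged values overlapped at all 6.

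Gene groups differed widely in how many of their promoters were open. For genes that nearly every cell uses, the promoters were found almost without exception. All 78 cytosolic ribosomal protein genes had a promoter region and 71 were called in all 12 lists, and all 34 aminoacyl-tRNA synthetase genes had one, with 33 in all lists. For mitochondrial ribosomal proteins 78 of 78 genes had a region and 64 were called in all lists. The respiratory chain had 78 of 84 with 64 in all lists, the proteasome 38 of 39 with 33, and replication-dependent histones, whose near-identical copies can share reads, 61 of 67 with 46. Zinc finger protein genes had a region in 373 of 418 cases, with 282 in all lists, and Zfp317 had the highest mean normal score of this family at 3.15.

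Gene families of other tissues were at the opposite end. Of 1093 olfactory receptor genes 21 (1.92%) had a promoter region and 6 were called in all 12 lists. Of 53 keratin genes 4 had one, and Krt10 alone was called in all lists. Of 20 genes particular to unrelated organs, such as Alb, Ins2 and Gfap, 2 had one. These were Snap25, a neuronal vesicle fusion protein, called in all 12 lists, and Mbp, a myelin protein, called in 2 young and 4 aged lists.

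**Figure D4:**
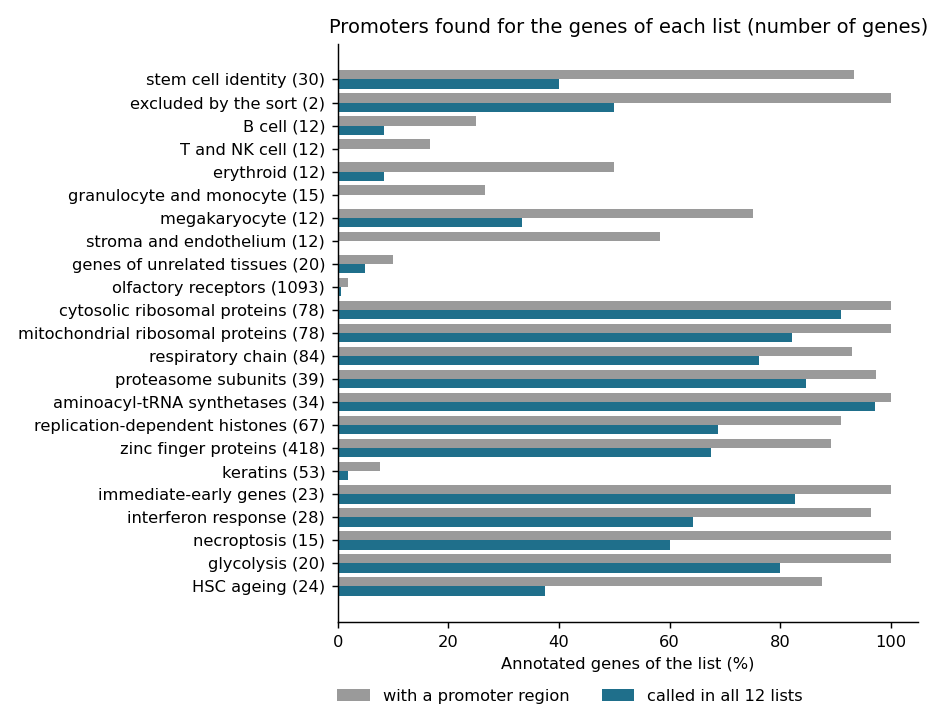
Percentage of the annotated genes of each list (y axis, number of genes in brackets) with a promoter region in the catalogue (grey bars) and with a promoter called in all 12 equal-length lists (blue bars). Housekeeping families fill most of the axis, and olfactory receptors, at 1.92%, almost none of it.

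The promoters of blood genes were used to check the label of the cells. Of 30 stem cell identity genes 28 had a promoter region and 12 were called in all 12 lists, among them Meis1, Hlf, Runx1, Erg, Tal1, Lyl1 and Kit. Of all 21755 annotated genes 66.4% had a region and 42.5% were called in all lists, so the 40% of stem cell genes called in all lists was not above the share of all genes. Several defining genes were called in only some of the equal-length lists, or in none. Procr was called in 2 young and 4 aged lists, Fgd5 in 1 young and 0 aged lists, and Mecom in no equal-length list. In the full lists a summit was present in 9 libraries at Procr, 6 at Fgd5 and 1 at Mecom. Slamf1, which encodes the CD150 used in the sort, had no region within 1 kb of its coding starts. Of the genes the sort selects against, Flt3 was called in all 12 lists and Cd48 in 1.

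Promoters of mature lineages were mostly not called. None of the T and NK cell genes was called in all lists, and 2 of 12 had a region, Lck and Bcl11b. For the B cell list 3 of 12 had one, and Ebf1 was called in all lists while Cd79a and Pax5 had none. Granulocyte and monocyte genes had a region in 4 of 15 cases, with 0 called in all lists and none at Mpo, Elane or S100a8. Erythroid genes had 6 of 12, with Epor called in all lists and no region at Klf1. Megakaryocyte genes had 9 of 12 with 4 in all lists (Pf4, Gp9, Gp1ba and Itga2b), the largest number among the mature lineages, though at 33.3% below the 42.5% of all genes. Stromal and endothelial genes had 7 of 12, with 0 in all lists.

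The share of promoters among the called regions was compared between groups. It was 38.3%, 39.1% and 38.8% in Young WT, 37.2%, 34.6% and 41.0% in Young Mlkl-/-, 38.0%, 40.0% and 34.9% in Aged WT, and 35.7%, 35.0% and 36.6% in Aged Mlkl-/- libraries. All 3 Young WT values lay above all 3 Aged Mlkl-/- values, the other pairs of groups overlapped, and the widest spread was within Young Mlkl-/-. Mean shares were 38.8% ± 0.391, 37.6% ± 3.22, 37.7% ± 2.60 and 35.7% ± 0.794 (SD, n = 3 each), so that aged libraries were 1.49 points and Mlkl-/- libraries 1.52 points below their counterparts, each less than the pooled SD of 2.12 points. Among the 1000 strongest regions of each list promoters made up between 62.7% and 72.3%.

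To ask which promoters changed with age, the 12306 promoters called in at least 3 lists (79.8%) were tested together with all other such regions with limma, at a Benjamini-Hochberg adjusted p under 0.01 over all 37858 regions. Over both genotypes 63 promoters passed, 27 with a higher and 36 with a lower rank in aged libraries. This was 0.512% of the promoters tested, whereas 2.72% of all regions tested passed (1.71% higher and 1.0% lower), and 3.78% of regions other than promoters. The tested promoters include those that passed the minimum of lists only through the age at which they ranked higher. At some of these, all values of the other age are the shared value of uncalled regions. Their SE and p-value then do not measure a spread between pools at that age.

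The share that passed was thus below the background at promoters. Among regions called in all 12 lists, the median residual SD between replicates was 0.234 for promoters and 0.237 for others. There 21 of 8455 promoters passed (0.248%), against 2.66% of the 7077 other regions. The part of replicate spread and of list sharing in this gap was not tested. The middle part of the age changes was narrower at promoters, with an interquartile range of 0.23 against 0.33 on the normal score scale. Young and aged values were without overlap at 151 promoters tested (1.23%), against 3.88% of all regions tested.

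The number of calls depended on single libraries and on 2 features of the lists that moved with age. It was 31 without Aged Mlkl-/- 2, 33 without Young WT 2, 35 without Aged Mlkl-/- 1, 36 without Young Mlkl-/- 1, 37 without Young WT 3, 40 without Aged WT 1 and 40 without Aged WT 3. It fell to 3 with list length as a covariate and to 11 with the presence of Y summits as a covariate. The part of these features in the age calls and the part of age cannot be told apart in these 12 libraries. The 9 libraries without Y summits keep only Young Mlkl-/- 3 of its group, so no count of calls is given for them. With percentile ranks in place of normal scores 13 promoters were higher and 31 lower.

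Among the largest rises were those of a pair of kinases. Mapk10, which encodes the stress kinase JNK3, had a lowest value of −0.54, a median of −0.03 and a highest of 1.0 in young libraries and 0.86, 1.53 and 2.09 in aged ones. It was called in 3 young and 6 aged lists and rose by 1.53 ± 0.26 (SE, n = 6 per age, limma adjusted p = 0.00154), and its highest young value lay within the aged range. Prkcz, an atypical protein kinase C, was called in 0 young and all 6 aged lists. Its aged values had a lowest of 0.31, a median of 0.62 and a highest of 1.01, and it rose by 1.22 ± 0.22 (limma adjusted p = 0.00214). All 6 aged values were above those of the young libraries, of which 1 held a summit there in its full list.

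Khdrbs2, an RNA-binding protein of the STAR family, was open in most young libraries as well. Its values had a lowest of −0.55, a median of 0.49 and a highest of 0.84 in young and 1.34, 1.55 and 1.92 in aged libraries (change 1.25 ± 0.19, limma adjusted p = 0.000617), without overlap. Celf2, a splicing regulator, was called in 0 young and 6 aged lists and had no summit in any full young list (change 1.11 ± 0.21, limma adjusted p = 0.00323). Its position lay 434 bp inside the gene, in an intron. Cntn1, a cell adhesion protein of the immunoglobulin family, had 0.84, 1.02 and 1.38 as lowest, median and highest aged values and was called in 2 young lists, both Mlkl-/- (change 1.28 ± 0.21, limma adjusted p = 0.00125).

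The other promoters among the 12 largest rises were Acox2 (a peroxisomal oxidase), Ccdc85a, Wasf3 (an actin regulator), Neu2 (a sialidase), A530032D15Rik, Olig1 (a transcription factor of glial cells) and Asb4 (a ubiquitin ligase adaptor), with rises of 1.08 to 1.13. Of these, Acox2, Ccdc85a, Neu2, Olig1 and Asb4 passed in 2 or fewer of the 12 fits that left out 1 library each. The positions of Wasf3 and Neu2 lay 370 and 900 bp inside the gene, in introns. A530032D15Rik belongs to a family of near-identical copies, and its values are uncertain for that reason.

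The largest fall was that of Slc17a4, an intestinal anion transporter. It had a lowest value of 0.67, a median of 1.18 and a highest of 1.33 in young libraries and was not called in any aged equal-length list (change −1.60 ± 0.21, limma adjusted p = 0.000242). Its position lay 847 bp inside the gene, in an intron. Haao, an enzyme of tryptophan breakdown, had 0.43, 0.85 and 1.42 in young libraries and was not called in any aged equal-length list (change −1.47 ± 0.22, limma adjusted p = 0.000608). Its position lay 259 bp inside the gene, also in an intron. Of the full aged lists 5 still held a summit at Slc17a4 and 2 at Haao, so these promoters dropped in rank and were not gone from all aged libraries.

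Rnf220, a ubiquitin ligase, had 0.53, 1.05 and 1.32 as lowest, median and highest young values and was called in 1 aged list (change −1.41 ± 0.23, limma adjusted p = 0.001). Nlrp1b is the sensor of an inflammasome and a member of a cluster of similar genes. It had 0.28, 0.72 and 1.31 in young libraries and was called in no aged equal-length list (change −1.32 ± 0.23, limma adjusted p = 0.00177). Mcl1, which protects cells from apoptosis, had 0.35, 0.86 and 1.09 in young libraries and was called in 1 aged list, at 0.50 (change −1.19 ± 0.23, limma adjusted p = 0.00406). Its position lay 688 bp inside the gene, in an intron, and it passed in 6 of the 12 fits that left out 1 library. Of the full aged lists 4 held a summit at Rnf220, 5 at Nlrp1b and 2 at Mcl1.

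The neighbours Calm4 and Calm5 encode calmodulin-like proteins of the skin and fell together. Calm4 had a lowest value of 0.35, a median of 1.08 and a highest of 1.27 in young and −0.57, −0.55 and 0.40 in aged libraries (change −1.37 ± 0.24, limma adjusted p = 0.00177). Calm5 had 0.84, 1.39 and 1.77 in young and −0.57, 0.35 and 0.55 in aged libraries (change −1.23 ± 0.24, limma adjusted p = 0.00435), and passed in 5 of the 12 fits that left out 1 library. Their positions lay 285 and 339 bp upstream of the start, outside the printed bases that hold the shared run. Whether the likeness extends to the positions was not tested, and their values may not be independent. The other promoters among the 12 largest falls were Rhoq (a small GTPase), Slc14a1 (a urea transporter), Sipa1 (an inactivator of the GTPase Rap), Duoxa1 (a maturation factor of dual oxidase) and Camkk2 (a kinase of the calcium response), with changes from −1.26 to −1.17. The position of Rhoq lay 607 bp upstream of the start, and those of Sipa1 and Duoxa1 532 and 380 bp downstream.

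**Figure D5:**
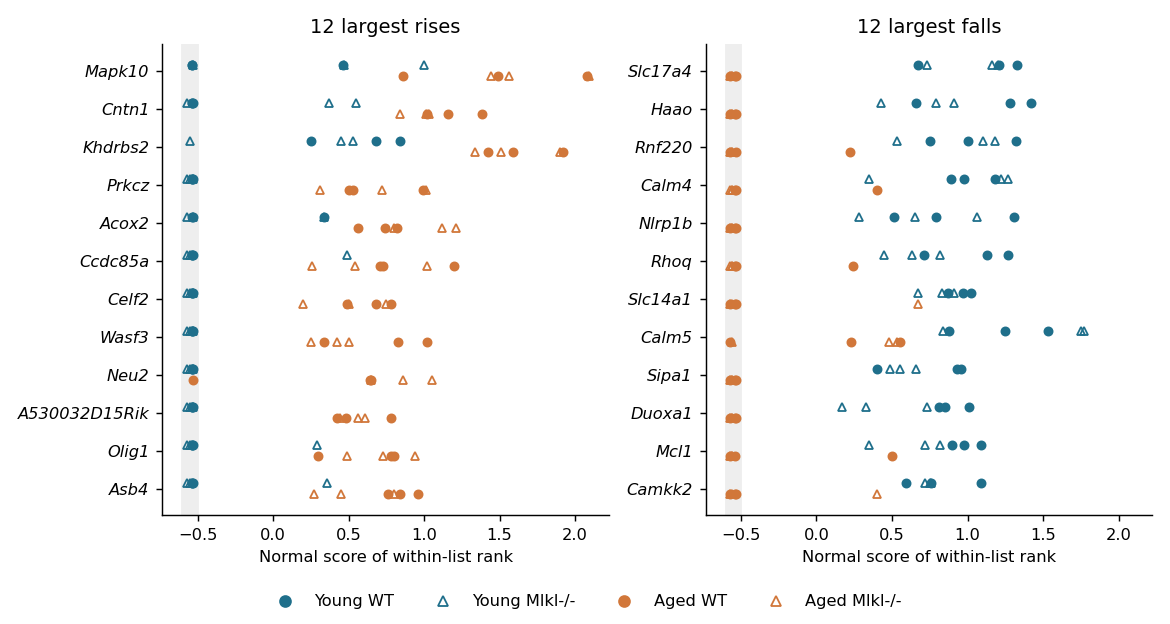
Normal score of the within-list rank (x axis) in each of the 12 libraries at the 12 promoters with the largest rise with age (left) and the 12 with the largest fall (right). Blue symbols are young and orange symbols aged libraries, filled circles WT and open triangles Mlkl-/-, and the grey band marks values of regions not called; most falls end in the grey band in aged libraries, and most rises start from it in young ones.

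Numerically smaller changes passed at promoters called in all 12 lists. Where a promoter was uncalled in some lists, its change includes the step from the shared value of uncalled regions. Libraries at that value also have almost no spread among them. Sizes at such promoters therefore cannot be set directly against those at promoters called throughout. Of the 63 promoters 21 were called in all 12 lists, 9 higher and 12 lower. Myh14, a non-muscle myosin heavy chain, had a lowest value of 0.87, a median of 1.16 and a highest of 1.24 in young and 1.81, 1.93 and 2.29 in aged libraries (change 0.86 ± 0.12, limma adjusted p = 0.000383). Ctla2a, a cysteine protease inhibitor that shares its region with Gm49391, had 2.29, 2.57 and 3.19 in young and 1.44, 1.81 and 2.16 in aged libraries (change −0.85 ± 0.14, limma adjusted p = 0.00134). Values of the 2 ages did not overlap at either. Cd47 (a signal that protects cells from phagocytosis), Eif4a1 (a translation initiation helicase) and Tufm (a mitochondrial elongation factor) were likewise called in all lists and changed by −0.76, −0.64 and −0.56.

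The promoters that passed spanned a wide range of composition. Their GC content was between 42.8% and 80.6% (median 60.2%) for those higher and between 42.8% and 73.6% (median 56.5%) for those lower, and the median was 65.2% in the 12243 tested promoters that did not pass. How they were called follows in part from their choice by age change. All 36 of lower rank were called in 6 of 6 young lists, and 9 of them in 0 aged lists. Of the 27 of higher rank 26 were called in 6 of 6 aged lists, and 6 in 0 young lists. In the full lists, each of the 36 had a summit in at least 2 aged libraries. Positions lay farther from the start in those that fell, with a median distance of 214 bp against 81 bp in those that rose and 82 bp in the rest.

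Motif letters differed as well. RUNX letters were near 9 of the 36 lower promoters (25%), 2 of the 27 higher ones (7.41%) and 8.30% of those that did not pass. AP-1 letters were near 6 lower (16.7%), 3 higher (11.1%) and 3.37% of the rest, and GATA letters near 6 lower (16.7%), 1 higher (3.70%) and 2.40% of the rest. The CRE was near 3 higher (11.1%), 0 lower and 2.67% of the rest. No test was made on these counts, and base composition moved with them.

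The age changes of the genotypes, which share no library, were compared promoter by promoter. Over all tested promoters, the changes in the 2 genotypes had a Spearman correlation of 0.262 and 58.4% had the same sign, against 0.509 and 67.0% for other regions. This is a description across regions of the same lists, which are not independent replicates.

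Within WT alone, 1 promoter passed, against 0.198% of all regions tested (0.153% higher and 0.0449% lower). It was Cntn1, at −0.54, −0.53 and −0.54 in Young WT and 1.16, 1.38 and 1.02 in Aged WT libraries (change 1.73 ± 0.30, limma adjusted p = 0.00974). Its change in Mlkl-/- was 0.84 ± 0.30 (limma adjusted p = 0.169), and the difference between the genotypes did not pass (limma adjusted p = 0.965). Within Mlkl-/- alone 0 promoters passed, against 0.151% of all regions, although 972 (7.90%) had an unadjusted p under 0.05. The lowest p was at Myh14 (change 0.96 ± 0.17, limma adjusted p = 0.0111). Next was Znrd1, a subunit of RNA polymerase I whose region also lies near the start of Znrd1as, with 1.41, 1.31 and 1.42 in Young Mlkl-/- and 2.2, 2.43 and 2.22 in Aged Mlkl-/- libraries (change 0.91 ± 0.16, limma adjusted p = 0.0139).

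To ask whether loss of Mlkl changed promoters, the genotypes were compared over both ages and at each age. No promoter passed in any of these comparisons (0 of 12306, and 0% of all regions), with 616 promoters (5.01%) at an unadjusted limma p under 0.05 over both ages, 485 at 3 months and 578 at 18 months. Of all regions 6.21% had an unadjusted p under 0.05 over both ages. Leaving out the extremes on each side (the 5% of lowest and of highest value), differences over both ages lay between −0.38 and 0.28. No promoter differed in its age change between the genotypes either (0 passed, 470 at an unadjusted limma p under 0.05, lowest adjusted p = 0.965).

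The promoters of lowest p in the genotype comparisons are given as values that did not pass. Cd68, a macrophage glycoprotein, was at 0.83, 0.52 and 0.47 in Young WT libraries and was not called in any of the other 9 equal-length lists (Mlkl-/- minus WT at 3 months −1.15 ± 0.27, limma adjusted p = 0.504). Lipa, the lysosomal acid lipase, was at 0.47 in each Young WT library and not called in the other 9 either (−1.02 ± 0.26, limma adjusted p = 0.504). Both were thus called in a single group of the equal-length lists. In the full lists Cd68 had a summit in 4 young and 3 aged libraries, and Lipa in 5 young and 3 aged ones.

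Naip5 is a receptor for bacterial flagellin in a cluster of similar genes. It was at 0.78, 0.52 and 0.54 in Aged WT and called in no Aged Mlkl-/- equal-length list (−1.18 ± 0.27, limma adjusted p = 0.611). All 6 full aged lists held a summit there, so Naip5 was lower in rank in Aged Mlkl-/- libraries and not absent. Intu, a regulator of cilium formation, was at 2.11, 1.86 and 1.60 in Aged WT and 1.16, 1.0 and 1.05 in Aged Mlkl-/- libraries (−0.79 ± 0.18, limma adjusted p = 0.611). The Aged groups did not overlap at either promoter. Ormdl3, an inhibitor of sphingolipid synthesis, was called in 1 of 3 equal-length lists of each WT group and in all 6 of Mlkl-/- (0.95 ± 0.24 over both ages, limma adjusted p = 0.764). In the full lists it had a summit in 6 young and 5 aged libraries.

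The promoter of Lrrc56, which also lies near the start of Hras, and that of the zinc finger gene Zfp174 had the lowest p for a different age change. Lrrc56 had mean values of 1.62 in Young WT, 0.90 in Aged WT, 1.28 in Young Mlkl-/- and 1.55 in Aged Mlkl-/- (difference of age changes 0.99 ± 0.26, limma adjusted p = 0.965). Zfp174 had means of 1.63, 2.24, 2.36 and 1.95 in the same order (−1.01 ± 0.27, limma adjusted p = 0.965). At each, the order of the ages was opposite in the genotypes, and neither passed.

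The promoter of Mlkl itself was a check of the labels only in part, since a deletion within the gene need not remove the promoter. Its values were −0.54, 0.38 and 0.45 in Young WT, 0.46, 0.33 and 0.54 in Young Mlkl-/-, −0.54, 0.35 and −0.57 in Aged WT, and 0.32, −0.56 and 0.36 in Aged Mlkl-/- libraries. A summit was present there in all 12 full lists. The genotypes overlapped (Mlkl-/- minus WT 0.32 ± 0.27, limma adjusted p = 0.871). The promoter of Ripk1, the kinase upstream, was called in all 12 equal-length lists. That of Ripk3, which phosphorylates MLKL, was called in 4 young and 3 aged ones. None of the 14 necroptosis promoters tested passed for age (0, with 7 of 14 higher), where 0.512% of all promoters tested passed.

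Among gene lists with more than 1 promoter tested, immediate-early genes had the most uniform direction with age. These genes encode transcription factors and feedback regulators induced within minutes of a stimulus. At their strongest promoter region, 20 of 22 had a lower mean in aged libraries (90.9%), where 42.1% of all promoters tested had a higher one, with a median change of −0.21, beside −0.039 over all promoters and −0.007 over all regions tested. Jun alone passed, with a lowest value of 1.49, a median of 1.73 and a highest of 2.04 in young and 0.82, 1.01 and 1.39 in aged libraries (change −0.71 ± 0.13, limma adjusted p = 0.00211), without overlap. This 1 of 22 stands beside 1.0% of all regions that passed lower.

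The others did not pass. Ier2 had a median of 0.77 in young and 0.30 in aged libraries, without overlap (change −0.77 ± 0.23, limma adjusted p = 0.0472). Fos, which pairs with JUN to form AP-1, had medians of 0.87 and 0.34 (change −0.68 ± 0.26, limma adjusted p = 0.124), and its values overlapped. Egr1 had medians of 1.42 and 0.78 (change −0.56 ± 0.15, limma adjusted p = 0.031) and Dusp1, a phosphatase of MAP kinases, 1.29 and 0.79 (change −0.55 ± 0.16, limma adjusted p = 0.0423). With list length as a covariate 19 of the 22 were lower, with the Y covariate 19, and in the 9 libraries without Y summits 18. With either covariate and in the 9 libraries with the tag, 0 of the 22 passed, so that the call of Jun was lost. Nr4a3, an orphan receptor of the same response, is not on this list and rose by 1.05 ± 0.23 (limma adjusted p = 0.0082).

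The list of HSC ageing genes shares members with genes that the study found by RNA-seq in such cells, so its direction is not independent evidence. At 14 of 19 promoters the mean was higher in aged libraries, against 42.1% of all promoters tested, with a median change of 0.22, and 2 passed, beside 1.71% of all regions that passed higher. Mt1, a metallothionein, had 0.44, 0.98 and 1.11 as lowest, median and highest young and 1.38, 1.5 and 1.79 as aged values (change 0.64 ± 0.13, limma adjusted p = 0.00499). Clca3a1, a chloride channel accessory protein, had −0.57, 0.40 and 0.70 in young and 0.91, 1.06 and 1.40 in aged libraries (change 0.93 ± 0.19, limma adjusted p = 0.00469). Neither overlapped. Both calls were lost (0 of the list passed) with list length or Y summits as a covariate and in the 9 libraries with the tag. The count was also 0 without Young WT 2, Young WT 3, Aged WT 1, Aged WT 3 or any 1 of the 3 Aged Mlkl-/- libraries, and 1 without any of the other 5. Values that did not pass went both ways, with Neo1 at 0.66 ± 0.24 (limma adjusted p = 0.096) and Selp, the P-selectin of platelets, at −0.56 ± 0.28 (limma adjusted p = 0.242).

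In the other lists no promoter passed (0 in each), and the counts of higher means stand beside 42.1% over all promoters tested. Among stem cell genes 9 of 20 were higher. The largest differences were −0.91 ± 0.23 at Gfi1b, a transcriptional repressor (limma adjusted p = 0.0222), and −0.47 ± 0.13 at Myct1 (limma adjusted p = 0.0261). Interferon response promoters were split, 12 higher and 13 lower of 25, with Oas1a at −0.58 ± 0.24 (limma adjusted p = 0.16). In glycolysis 9 of 20 were higher, with Tpi1 at 0.87 ± 0.23 (limma adjusted p = 0.0253) and Pgam1 at −0.46 ± 0.12 (limma adjusted p = 0.0198). Among the housekeeping lists the medians lay close to that of all promoters: −0.05 for cytosolic ribosomal proteins (26 of 78 higher), −0.06 for mitochondrial ribosomal proteins (30 of 77), −0.04 for the respiratory chain (31 of 77), −0.08 for the proteasome (16 of 37), −0.05 for aminoacyl-tRNA synthetases (12 of 34), −0.07 for histones (23 of 61) and −0.03 for zinc finger proteins (162 of 355).

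Single members of these lists stood out by size but did not pass. Rpl8 was called in 1 young and 6 aged lists (change 0.86 ± 0.23, limma adjusted p = 0.0261), and Ndufa1, a subunit of respiratory complex I, in 6 young and 1 aged lists (−0.89 ± 0.24, limma adjusted p = 0.0278). Megakaryocyte promoters were higher at 5 and lower at 3 of 8, with Vwf at 0.47 ± 0.32 (limma adjusted p = 0.42). The promoters of other mature blood cells were mostly too rarely called to be tested: 4 erythroid, 1 B cell, 1 granulocyte and monocyte and 0 T and NK cell promoters were called in at least 3 lists.

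The X chromosome carried 522 promoters. Of the 405 tested, 0 rose and 2 fell with age (6030498E09Rik and Nrk), beside 0.219% and 0.293% of all promoters tested. A higher mean in aged libraries was found at 50.9% of them, against 41.8% of the 11901 autosomal promoters. Summits at Ddx3y, Uty and Eif2s3y were present in 3 of 6 young and 0 of 6 aged libraries. The labels name no sex, so a part of sex in this difference and a part of age cannot be told apart. The autosomes alone held 27 that rose and 34 that fell.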

How the data were processed

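ATAC-seq summits of 12 libraries (3 for each of 4 groups) were analysed. The authors aligned reads to mm10 with Bowtie2 2.5.3 and ran MACS2 2.2.7.1 for every library separately; the submitters' notes also name bedtools 2.31.0 and edgeR 3.30.3. The deposited score of a summit is the −log10 of its q-value as given by the authors' peak caller. The lowest was 2.00, below the 3 that the q cutoff of 0.001 in the study's methods corresponds to; the cause is not known, and scores of at least 3 were used. Since no reads are counted in these lists, no count model, depth or interval for counting error could be had, and only the number of libraries sets the precision.

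Summits with a score of at least 3 on chromosomes 1 to 19 and X were widened by 250 bp on each side and merged over the lists. A region's position was its highest-scoring summit, and it was a promoter within 1 kb of a transcript start of a protein-coding gene in GENCODE M21. Lists were cut to 35696 summits each with ties broken under a fixed seed. Highest scores were ranked within each list over all regions and turned into normal scores, uncalled regions sharing the lowest rank. Regions called in at least 3 lists entered 1 limma 3.58.1 fit (R 4.3.3, trend, no covariate) with 7 contrasts, tested on simulated data. Motif letters, forward and reverse, were looked for up to 100 bp from each position in GRCm38, the assembly of mm10, which also gave the printed sequences. Other steps used Python 3.11.15, numpy 2.4.6, pandas 2.3.3, scipy 1.17.1 and pysam 0.24.0.

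Promoters, gene lists, motifs and tests were chosen with earlier results of these data known. Promoters were named by rule: the 12 largest rises and falls with age past the threshold, up to 3 in each direction (or, with none past, the 2 of lowest p) in other contrasts, the 6 highest mean ranks, in each gene list those that passed and up to 4 of the largest age changes, and Mlkl. Smaller age changes, and list members named for whether they were called, were picked after their values were seen. A gene with several regions was described in lists by its strongest one. Alternatives were no score minimum or one of 5, unequal lists, 100 bp windows, minimums of 2 or 6 lists, percentile ranks, separate fits, a replicate block, each library left out, 9 libraries whose file names share a tag, starts within 500 bp, starts of coding transcripts, autosomes, another seed, and list length or Y summits as covariates. Chromosome Y was left out of the comparisons.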

Additional observations from a re-analysis of the deposited data

Results flagged for a closer look

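Chromosome Y was outside the comparisons, and 41 summits with a score of at least 3 lay there within 1 kb of protein-coding starts, in a part of the data that no comparison used. They fell at 7 genes. Of the 41, 25 were at Gm47283, with 1 to 3 summits in each of the 12 lists, and 9 were at Ddx3y, Uty and Eif2s3y. These 9 came from 3 libraries, Young WT 1, Young Mlkl-/- 1 and Young Mlkl-/- 2. The 6 aged libraries had 0 summits at these 3 genes.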

How the results depend on the processing

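The number of promoters that changed with age over both genotypes, 63, became 117 with lists of unequal length, 296 at an adjusted p under 0.05, 7 in the 9 libraries with the tag, 3 with list length as a covariate and 11 with Y summits as a covariate. It was between 31 and 62 when each library was left out. The 9 libraries without Y summits were a setting chosen after seeing the data. They keep only Young Mlkl-/- 3 of its group, so their counts of calls are not given. Of the 24 promoters named for the largest changes, 4 passed with the tag, 1 with list length and 3 with the Y covariate, all in the same direction. Between 14 and 22 passed when each library was left out, and 13 of the 24 passed in all 12 of these fits. None of the 24 changed sign in any of its 19 settings. They were named for the largest changes in the same libraries, so a stable sign follows in part from that choice. The 1 call in WT became 0 with scores of at least 5, 100 bp windows, percentile ranks, separate fits, the tag and either covariate, 4 with a minimum of 6 lists, 8 with unequal length and 50 at an adjusted p under 0.05, and between 0 and 1 with each library left out, being 0 in 10 of those 12 fits. The 0 calls in Mlkl-/- became 1 with a minimum of 2 lists, 2 with a minimum of 6, 4 with unequal length and 29 at an adjusted p under 0.05, and between 0 and 2 with each library left out. For genotype and for a different age change the count was 0 in every setting run. The share of promoters called in all lists was 51.3% with scores of at least 5, 65.4% with unequal length, 42.7% with 100 bp windows, 57.5% with the tag, 60.2% for starts within 500 bp and between 55.1% and 55.7% with each library left out. The aged minus young promoter share was −4.90 points with unequal length, and the median normal score 0.56 with 100 bp windows and 0.89 for starts within 500 bp. With the tag or with a library left out, the share called in all lists counts only the lists kept, so it cannot fall. The longer lists of unequal length cannot lower it either. The cause of the other shifts was not tested.

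Replicate numbers are shared between groups, but the deviations of same-numbered libraries were correlated between −0.301 and 0.129, so the numbers were not taken as pairs. With a replicate block 44 promoters changed with age over both genotypes and 0 in WT. Depth limits all of this to ranks within lists, and the 9 libraries with the tag, the list lengths and the Y summits are not spread evenly over the ages.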
